A study of Mus musculus with 16 samples.

Results

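Complex I (NADH:ubiquinone oxidoreductase) is the entry enzyme of the mitochondrial respiratory chain. Its nuclear-encoded subunits and several of its assembly factors carry gene symbols beginning with Nduf. The members described here are the genes whose symbol begins with Nduf, pseudogenes left out, which gave 47 of the 15350 genes listed. By symbol, 39 were subunits (Ndufa, Ndufb, Ndufc, Ndufs and Ndufv) and 8 were assembly factors (Ndufaf1 to Ndufaf8). The 39 comprised 7 core subunits, 9 accessory subunits of the matrix arm, 20 accessory subunits of the membrane arm, Ndufab1, which sits in both arms, and Ndufa4 and its paralog Ndufa4l2. All 37 nuclear subunits of the complex were therefore measured, since Ndufa4 is now counted with complex IV and Ndufa4l2 is its paralog. Ndufb1-ps is typed as a non-coding RNA in GENCODE M21, but 85.1% of its span lies inside the protein-coding Ndufb1 of RefSeq, and it was kept as a membrane-arm member. No mitochondrially encoded gene was listed, so the subunits that the organelle encodes are not analysed here.

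Interscapular brown fat was taken from C57BL/6J mice and its RNA measured by strand-marking mRNA sequencing. The 4 groups of 4 libraries were wild type (WT) mice given saline, WT mice given isoproterenol, Ucp1-knockout (KO) mice given saline and KO mice given isoproterenol. Isoproterenol, a beta-adrenergic agonist that activates brown fat, was infused by Alzet minipump at 60 mg per kg per day for 3 days, and the controls received saline, by a route not given in the sources used here. The protocol text attached to the saline samples also describes the isoproterenol infusion, and the groups follow the treatment given among each sample's characteristics. Neither age nor sex is given in the sources used here, nor does any label tie a library to its own animal. The p-values thus reflect only how far these libraries spread, part of which may be technical.

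Complex I oxidises NADH at the tip of an arm that reaches into the mitochondrial matrix, passes the electrons along iron-sulfur clusters to ubiquinone, and pumps protons through an arm in the inner membrane. The core subunits carry the flavin, the clusters and the quinone pocket, the accessory subunits surround and stabilise them, and the assembly factors build the enzyme without remaining in it. Brown fat is rich in mitochondria because it burns fuel for heat, and UCP1 is the inner-membrane protein that lets protons return without making ATP.

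Each library held 9004515 to 20986735 reads over the listed genes. Values are CPM, reads scaled by the authors to a common library size, log2 fold changes are differences of group means of log2 CPM with their standard error (SE), and a call needed a limma p below 0.05 after Benjamini-Hochberg adjustment over the 15350 genes. Where 4 values are given for a group, they follow replicates 1 to 4, which have no order of their own. No member was at 0 reads in any library, the lowest being Ndufaf6 with 95 reads. Ucp1 measured 2298, 3449, 3219.7 and 3339 CPM in WT saline, 8905, 11662, 17655 and 18458 in WT isoproterenol, 1118, 588, 1156 and 409.8 in KO saline and 18.96, 268, 848 and 2129 in KO isoproterenol libraries. Each KO library was below every WT library of the same treatment, which checks the labels only in part, because a gene-level value can hold reads from outside the deleted stretch. The log2 difference of Ucp1 between KO and WT was -2.02 ± 0.98 under saline (limma adjusted p = 0.742) and -5.45 ± 0.98 under isoproterenol (limma adjusted p = 0.000528). The KO isoproterenol libraries stood apart from one another and from the other 12 on the first principal component of all genes, at 176, 100.4, 107 and 57.5 against -62.0 to 3.97, and replicate 1 lay farthest out. The main counts and medians that rest on this group are therefore also given without that library.

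Sequences upstream of the members are shown as background, and whether any motif goes with a change in level was not tested. RefSeq promoters (GRCm38.p6, from 250 bases before to 50 after the annotated start) were found for 41 of the 47 members, with none for Ndufa2, Ndufa4l2, Ndufaf6, Ndufb9 and Ndufs1 among the others. Of the 43 member promoters, 16.3% held CATGCGC, the core of the nuclear respiratory factor NRF1 motif, against 3.91% of the 32851 promoters in the table. The YY1 letters AAGATGG were in 18.6% against 6.34%, the ETS letters CCGGAAG, as bound by GABPA, in 14.0% against 8.86%, and the ERR letters AAGGTCA in 6.98% against 4.72%, both strands read. At least 1 of the 4 was in 48.8% of member promoters and in 21.6% of all. Median GC content was 59.3% in member promoters and 52.7% in all, and its part in these shares was not tested.

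The 4 promoters below belong to the members on which the results turn, written 5′ to 3′ in the direction of transcription with motif matches in capitals. Ndufv1 (chr19:4012706-4013005, minus strand) and Ndufs7 (chr10:80249199-80249498, plus strand) were the core subunits with the largest falls in KO tissue. Ndufaf3 (chr9:108567387-108567686, minus strand) and Ndufaf4 (chr4:24897833-24898132, plus strand), partners in early assembly, moved in opposite directions in WT tissue.
Ndufv1: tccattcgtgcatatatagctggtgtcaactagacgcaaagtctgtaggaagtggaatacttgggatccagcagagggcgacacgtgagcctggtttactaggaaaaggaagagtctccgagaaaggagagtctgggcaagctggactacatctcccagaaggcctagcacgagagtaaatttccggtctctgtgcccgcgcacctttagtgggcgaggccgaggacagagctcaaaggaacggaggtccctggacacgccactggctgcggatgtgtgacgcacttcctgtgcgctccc
Ndufs7: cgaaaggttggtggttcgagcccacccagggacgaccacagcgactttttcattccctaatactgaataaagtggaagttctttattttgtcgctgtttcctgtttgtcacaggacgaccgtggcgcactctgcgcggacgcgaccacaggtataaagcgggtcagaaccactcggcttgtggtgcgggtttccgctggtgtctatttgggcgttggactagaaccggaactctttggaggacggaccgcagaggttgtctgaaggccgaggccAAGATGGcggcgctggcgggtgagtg
Ndufaf3: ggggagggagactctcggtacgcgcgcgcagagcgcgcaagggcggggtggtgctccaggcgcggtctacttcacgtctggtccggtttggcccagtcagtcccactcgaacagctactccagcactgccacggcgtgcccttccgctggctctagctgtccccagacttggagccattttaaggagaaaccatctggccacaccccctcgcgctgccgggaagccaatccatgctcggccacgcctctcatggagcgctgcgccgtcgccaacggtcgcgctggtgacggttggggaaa
Ndufaf4: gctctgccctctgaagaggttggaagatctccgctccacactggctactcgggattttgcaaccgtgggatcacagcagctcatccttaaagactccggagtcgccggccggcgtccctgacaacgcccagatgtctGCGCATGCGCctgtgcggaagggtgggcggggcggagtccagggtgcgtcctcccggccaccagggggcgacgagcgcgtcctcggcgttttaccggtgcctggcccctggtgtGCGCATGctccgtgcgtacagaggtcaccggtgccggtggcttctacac
Ndufaf4 held 3 matches to the NRF1 core, 2 of which overlap on opposite strands in the first capital run. Ndufs7 held 1 match to the YY1 letters, and the windows of Ndufv1 and Ndufaf3 held none of the 4.

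In WT saline tissue the subunits were far more abundant than the factors that assemble them. Per kilobase of exon, the median subunit measured 231 CPM and the median assembly factor 16.1 CPM. On that scale Ndufa4 (760 CPM per kb), Ndufa1 (615), Ndufb11 (594) and Ndufv1 (504) were among the highest, while Ndufb2 (3.10) and Ndufaf2 (6.40) were lowest. The highest assembly factor per kilobase was Ndufaf1 at 34.7, and 4 subunits lay below it, namely Ndufab1 (22.2), Ndufb4 (20.2), Ndufa4l2 (16.6) and Ndufb2. Exon lengths were unions of annotated exons, so long untranslated or alternative exons lower a gene's value on this scale.

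Without isoproterenol, no difference between genotypes was detectable in these genes. Under saline, 0 of 47 members were called between KO and WT, where 0.0977% of all genes were called, and 0 members had an unadjusted p under 0.05. The count was 0 in each of the 26 settings of the fit, limma's voom weights among them. The median log2 difference was 0.08 for subunits and 0.12 for assembly factors, against 0.00 for all genes. The widest differences were those of Ndufaf4 (0.31 ± 0.38), Ndufb2 (0.26 ± 0.21), Ndufaf2 (0.25 ± 0.17) and Ndufb7 (0.24 ± 0.27), with limma adjusted p from 0.846 to 0.955, and Ndufa1 was the lowest at -0.21 ± 0.29. Ndufa7 (0.00), Ndufb11 (-0.01) and Ndufb9 (0.01) differed least. For Ndufs8, an iron-sulfur core subunit, the mean was 323 ± 47.7 CPM in WT and 351 ± 77.2 CPM in KO saline tissue (SD, n = 4).

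Isoproterenol in WT tissue left most complex I genes within the spread between libraries. Of the 47 members, 2 were called higher and 1 lower, where 7.6% of all genes were higher and 8.98% lower (5.02% and 11.4% when scaled by library totals). The median log2 fold change was 0.25 for subunits and 0.25 for assembly factors against -0.02 for all genes, and 36 of 47 members had a positive value. Members whose WT isoproterenol libraries all lay above the WT saline ones numbered 18, where 16.3% of all genes did so, and 2 lay wholly below, where 16.6% did.

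The member with the largest rise in WT tissue was Ndufaf4, an early assembly factor of the matrix arm. Ndufaf4 measured 54.98, 48.3, 46.3 and 52.3 CPM in WT saline, 113, 109, 151 and 129 in WT isoproterenol, 48.98, 68.4, 59.5 and 76.3 in KO saline and 19.1, 42.3, 71.2 and 117 in KO isoproterenol libraries. All WT isoproterenol libraries were above all saline libraries of both genotypes, and KO isoproterenol libraries ranged from below to above those saline libraries. The WT log2 fold change was 1.30 ± 0.38 (limma adjusted p = 0.028).

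Ndufaf3, which acts with Ndufaf4, fell in WT tissue. Ndufaf3 measured 49.5, 62.3, 48.9 and 51.01 CPM in WT saline, 40.8, 32.7, 28.9 and 42.3 in WT isoproterenol, 56.6, 55.4, 50.8 and 58.99 in KO saline and 14.7, 18.01, 21.7 and 25.9 in KO isoproterenol libraries. Every isoproterenol library was below every saline library in both genotypes. The WT log2 fold change was -0.56 ± 0.17 (limma adjusted p = 0.0314).

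Ndufb2, a small accessory subunit of the membrane arm, was the subunit called in WT tissue. Ndufb2 measured 16.97, 18.4, 15.03 and 19.5 CPM in WT saline, 29.2, 32.6, 26.6 and 30.1 in WT isoproterenol, 20.4, 22.4, 18.4 and 22.1 in KO saline and 6.45, 8.001, 11.3 and 15.4 in KO isoproterenol libraries. WT isoproterenol libraries were the highest of the 4 groups without overlap, and KO isoproterenol libraries lay below all KO saline ones, the highest of them inside the WT saline range. The WT log2 fold change was 0.76 ± 0.21 (limma adjusted p = 0.0198).

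No label pairs the WT libraries, but same-numbered ones deviated together, so replicate number was also fitted as a block among them. In that fit, chosen after seeing the data, Ndufb2 remained higher (limma adjusted p = 0.0434). Ndufaf4 (limma adjusted p = 0.064) and Ndufaf3 (limma adjusted p = 0.0544) were no longer called. In that blocked fit, where 5.41% of all genes were higher and 6.74% lower, Ndufa4l2 was also called higher (log2 fold change 0.53, limma adjusted p = 0.0435). Each of the 3 calls was lost in at least 1 fit that left out a WT library, with limma adjusted p up to 0.0767 for Ndufaf4, 0.101 for Ndufaf3 and 0.0623 for Ndufb2. The libraries whose absence ended a call were WT saline replicate 3 and WT isoproterenol replicate 2 for Ndufb2, WT saline replicates 2 to 4 and WT isoproterenol replicates 3 and 4 for Ndufaf4, and all WT saline replicates and WT isoproterenol replicates 2 and 3 for Ndufaf3. No member was called without WT saline replicate 3, and 1 was without WT saline replicate 2, WT saline replicate 4 or WT isoproterenol replicate 2.

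The common estimate of spread draws on all 16 libraries, and the WT count was higher in a fit that left out all 8 KO libraries. Fitted on the 8 WT libraries alone, 17 members were higher and 2 lower, where 16.3% of all genes were higher and 15.8% lower. The 17 were the core subunits Ndufv2 (0.43) and Ndufs8 (0.45), the matrix-arm Ndufs4 and Ndufa12, the membrane-arm Ndufb1-ps, Ndufb2, Ndufb4, Ndufb5, Ndufb6, Ndufb7, Ndufc1 and Ndufs5, Ndufab1 (0.72), and the assembly factors Ndufaf1, Ndufaf4, Ndufaf6 and Ndufaf7. The 2 lower were Ndufaf3 and Ndufb3 (-0.27). Without KO isoproterenol replicate 1 in the joint fit, 5 members were called in WT tissue, the 3 above with Ndufa4l2 and Ndufaf7. In that fit 11.5% of all genes were higher and 12.2% lower.

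**Figure D1:**
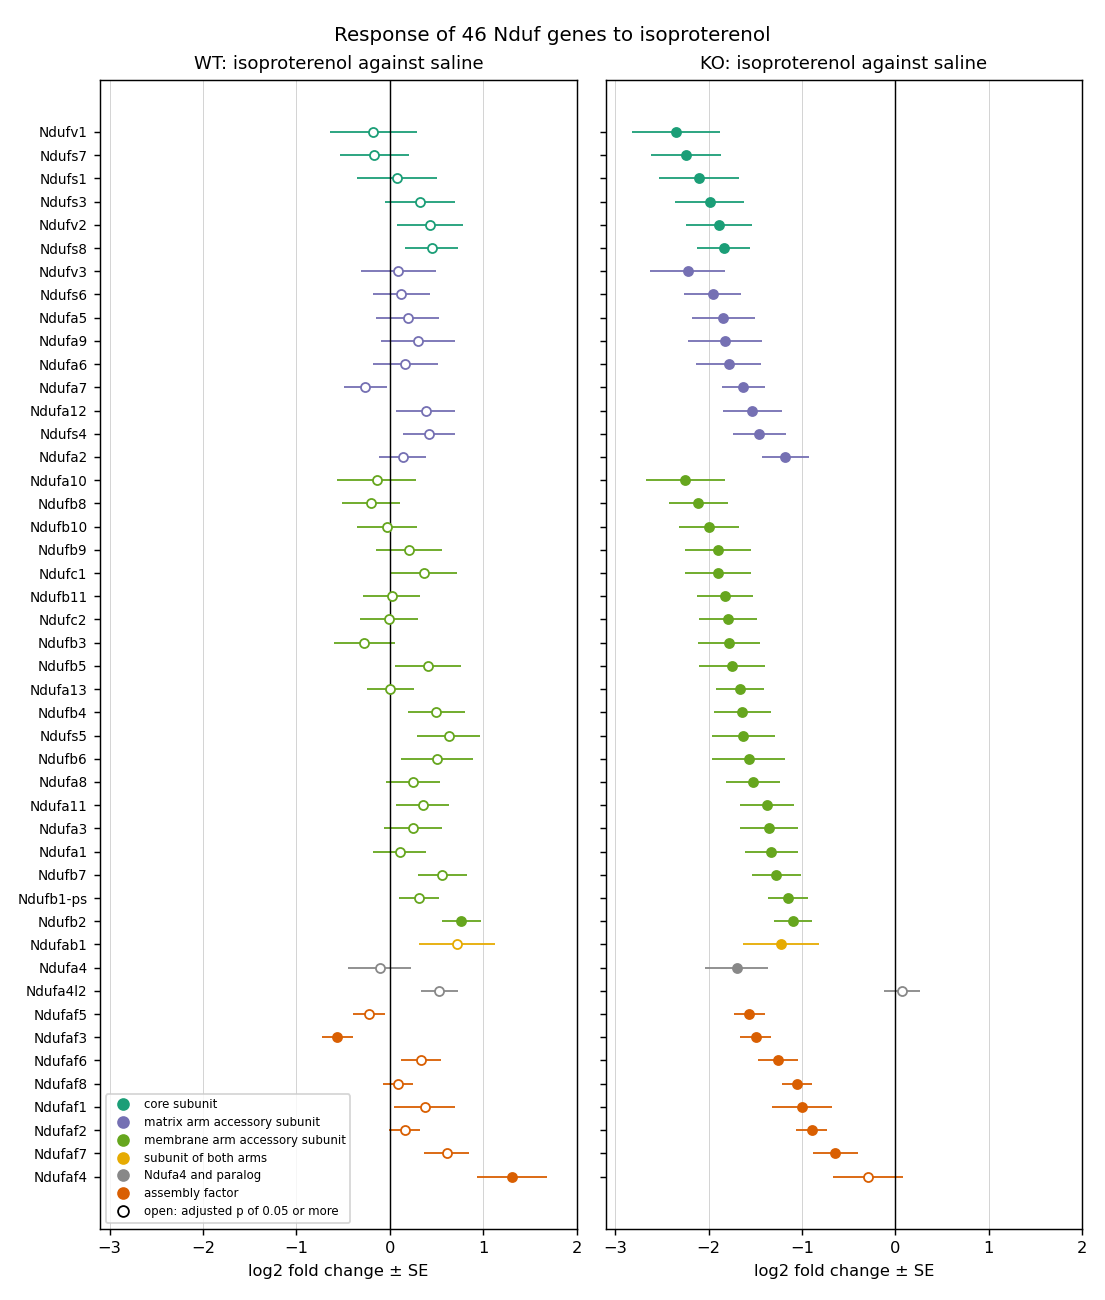
Log2 fold change (x axis, ± SE) of 46 of the Nduf genes (y axis, grouped by role) for isoproterenol against saline, WT on the left and KO on the right, filled where called. In WT most points lie right of 0 and 3 are filled, and in KO 44 are filled and all of these lie left of 0.

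In KO tissue nearly the whole family was lower under isoproterenol. Of 47 members, 45 fell and 0 rose, where 24.8% of all genes fell and 23.8% rose, and Ndufa4l2 and Ndufaf4 were not called. Scaled by library totals instead, 44 fell and 0 rose, where 19.1% of all genes fell and 29.3% rose. The median log2 fold change was -1.78 for the 39 subunits, -1.03 for the 8 assembly factors and 0.00 for all genes. The 4 KO isoproterenol libraries lay wholly below the 4 KO saline ones for 42 members, where 19.3% of all genes did so. At least 2-fold falls were called for 43 members, where 14.2% of all genes fell so far. Without KO isoproterenol replicate 1, 43 members fell, where 23.3% of all genes fell, and the medians were -1.38 for subunits and -0.89 for assembly factors.

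The 7 core subunits all fell, with log2 fold changes from -2.35 to -1.84 and a median of -1.99. Ndufv1 binds NADH and the flavin at the tip of the matrix arm and, with all libraries, fell furthest of all members. Without KO isoproterenol replicate 1 the largest fall was that of Ndufs7, at -1.79. Ndufv1 measured 1069.7, 1513, 1398 and 1329.7 CPM in WT saline, 1145, 1001, 1159 and 1381 in WT isoproterenol, 1381, 1480.2, 1294 and 1567 in KO saline and 79.04, 271, 358 and 806 in KO isoproterenol libraries. Its KO isoproterenol libraries were all below the other 12, replicate 1 by far the lowest. The log2 fold change was -2.35 ± 0.47 (limma adjusted p = 0.000862), and -1.74 without KO isoproterenol replicate 1 (limma adjusted p = 0.000179).

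Ndufs7 carries the last iron-sulfur cluster before ubiquinone. Ndufs7 measured 561, 717, 589 and 572 CPM in WT saline, 603, 509, 473 and 589 in WT isoproterenol, 622, 744, 545 and 658 in KO saline and 52.8, 112, 174 and 322 in KO isoproterenol libraries. Again the KO isoproterenol libraries were below all others. The fold change on the log2 scale was -2.24 ± 0.37 (limma adjusted p = 0.000218).

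Other core subunits were Ndufs1 (-2.10 ± 0.43) and Ndufv2 (-1.89 ± 0.35), which with Ndufv1 form the NADH-oxidising module, and Ndufs3 (-1.99 ± 0.37) and Ndufs8 (-1.84 ± 0.29), which with Ndufs7 belong to the quinone-reducing module. Their limma adjusted p ran from 0.000133 (Ndufs8) to 0.000976 (Ndufs1), and KO isoproterenol lay below KO saline without overlap for all 7. Ndufs8 went from 351 ± 77.2 CPM in KO saline to 107 ± 54.01 CPM in KO isoproterenol tissue (SD, n = 4).

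**Figure D2:**
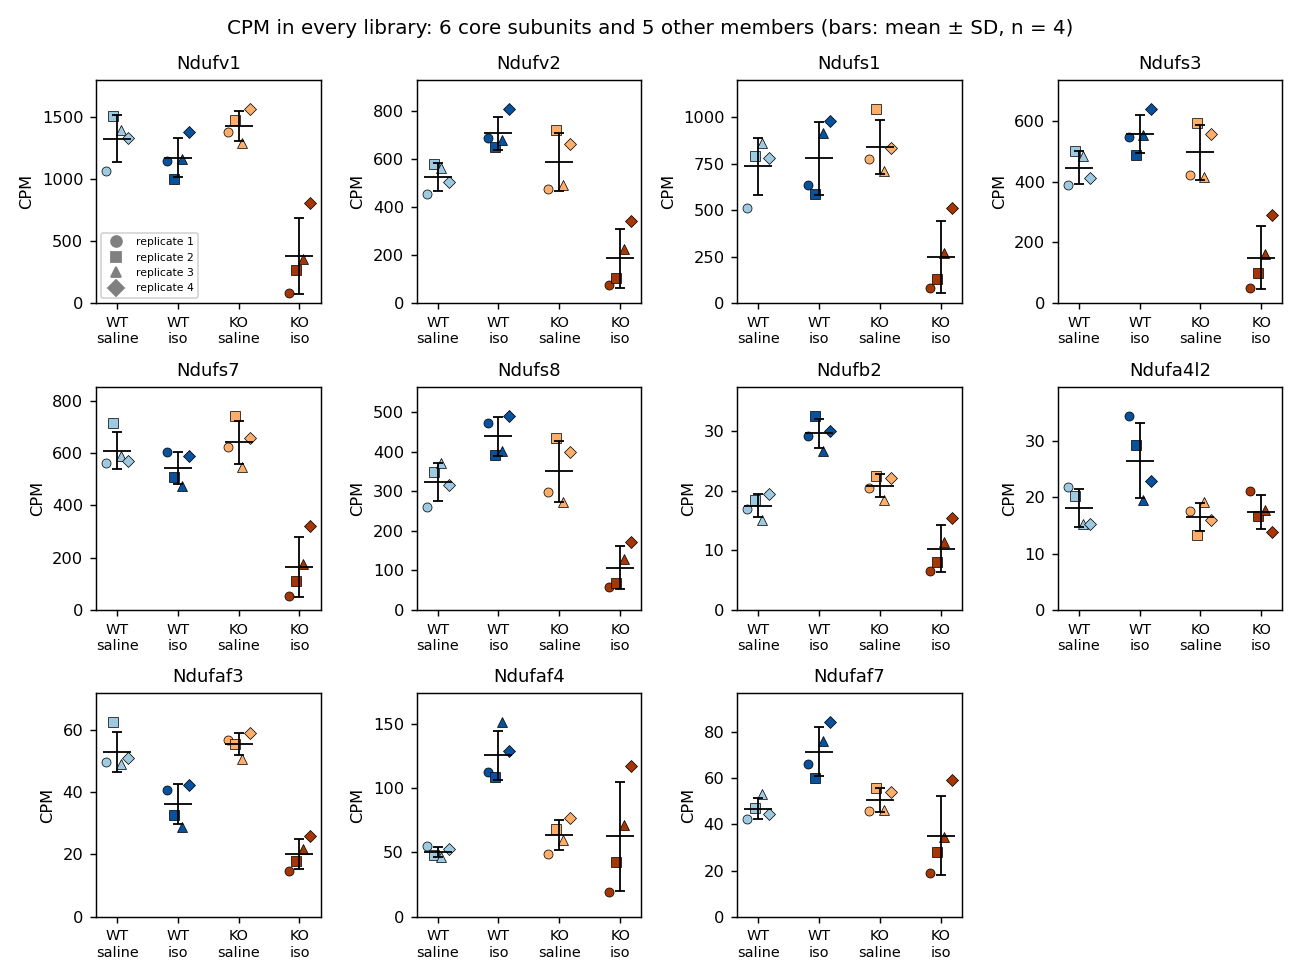
CPM (y axis, from 0) in each of the 4 groups (x axis) for 6 core subunits and 5 other members, with 1 point per library, marker shape giving the replicate number, and bars the mean ± SD of 4 libraries. KO isoproterenol points lie below the KO saline points for each core subunit shown, and below all others except for Ndufs1, whereas Ndufa4l2, Ndufaf4 and Ndufaf7 overlap with KO saline.

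All 9 accessory subunits of the matrix arm fell, from -2.22 to -1.18 with a median of -1.78. Ndufv3, a small subunit of the NADH module, fell most at -2.22 ± 0.40 (limma adjusted p = 0.000402). Ndufs6, a zinc-binding subunit, and Ndufs4, which helps join the NADH module to the arm, fell by 1.96 and 1.46 on the log2 scale (limma adjusted p = 0.000133 and 0.000663). Ndufs4 measured 226, 264, 240.2 and 223 CPM in WT saline, 323, 301, 309 and 340.0 in WT isoproterenol, 199.8, 286, 215 and 294 in KO saline and 50.02, 67.4, 110.0 and 173 in KO isoproterenol libraries. The KO isoproterenol libraries held less Ndufs4 than any other, and the WT isoproterenol libraries the most. Ndufa9, a nucleotide-binding subunit close to the quinone pocket, fell by 1.82 (limma adjusted p = 0.00163), and Ndufa2 had the smallest fall of this class.

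All 20 accessory subunits of the membrane arm fell as well, from -2.25 to -1.09 with a median of -1.65. Ndufa10 led this class with all libraries, and Ndufb8 led it without KO isoproterenol replicate 1, at -1.721 against -1.715. Ndufa10 measured 762, 1044, 1045 and 937 CPM in WT saline, 845, 739, 856 and 987 in WT isoproterenol, 851, 1062, 897 and 1198 in KO saline and 68.9, 183, 282 and 534 in KO isoproterenol libraries. The KO isoproterenol libraries did not reach the lowest of the others. Its change in KO tissue was -2.25 ± 0.42 on the log2 scale (limma adjusted p = 0.000573). Ndufb8, whose protein is often blotted as a marker of assembled complex I, is given next. Ndufb8 measured 397, 492, 513 and 446 CPM in WT saline, 441, 348, 368 and 451 in WT isoproterenol, 438, 509.8, 392 and 472 in KO saline and 46.7, 101, 120.1 and 212 in KO isoproterenol libraries. Of the WT isoproterenol libraries 2 lay below the WT saline range and 2 within it, and KO isoproterenol libraries were below all others. The log2 fold change in KO tissue was -2.11 ± 0.31 (limma adjusted p = 9.09e-05). Ndufb2, higher in WT tissue under the drug, had the smallest fall of the class in KO tissue at -1.09 ± 0.21 (limma adjusted p = 0.00056).

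Ndufab1 is the mitochondrial acyl carrier protein, which also serves fatty acid and lipoate synthesis. Ndufab1 measured 139, 162, 163 and 147 CPM in WT saline, 226, 225, 265 and 296 in WT isoproterenol, 155, 186, 149.6 and 192 in KO saline and 27.7, 47.5, 111 and 190.2 in KO isoproterenol libraries. KO isoproterenol replicate 4 lay within the KO saline range and the other 3 below it. The log2 fold change was -1.23 ± 0.41 (limma adjusted p = 0.0212), and the call was lost without KO isoproterenol replicate 1 (limma adjusted p = 0.0554), without KO isoproterenol replicate 2 (limma adjusted p = 0.068) and without KO saline replicate 4 (limma adjusted p = 0.0506). On the 8 KO libraries alone it was not called either (limma adjusted p = 0.104).

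Ndufa4 and Ndufa4l2 parted. Ndufa4, long listed with complex I and now assigned to complex IV, fell by 1.70 on the log2 scale (SE 0.34, limma adjusted p = 0.000843). Ndufa4l2 measured 21.8, 20.2, 15.3 and 15.3 CPM in WT saline, 34.5, 29.2, 19.4 and 22.9 in WT isoproterenol, 17.5, 13.3, 19.2 and 15.9 in KO saline and 21.1, 16.6, 17.7 and 13.9 in KO isoproterenol libraries. Its KO groups overlapped. Ndufa4l2 is known as a hypoxia-induced gene, and its log2 fold change in KO tissue was 0.07 ± 0.19 (limma adjusted p = 0.794).

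Of the 8 assembly factors, 7 fell in KO tissue, from -1.56 to -0.64, and Ndufaf4 at -0.29 ± 0.38 was not called (limma adjusted p = 0.545). Ndufaf5, which modifies an arginine of Ndufs7, fell most. Ndufaf5 measured 28.3, 30.6, 38.2 and 32.5 CPM in WT saline, 28.5, 22.9, 30.5 and 29.1 in WT isoproterenol, 32.97, 37.1, 32.8 and 35.1 in KO saline and 8.68, 10.8, 11.8 and 16.7 in KO isoproterenol libraries. All 4 KO isoproterenol libraries were below the other 12. On the log2 scale the change was -1.56 ± 0.17 (limma adjusted p = 5.60e-06), and its partner Ndufaf8 fell by 1.05 (limma adjusted p = 0.000101). Ndufaf3 was at -1.50 ± 0.17 (limma adjusted p = 7.20e-06) and Ndufaf6, an early factor, at -1.26 ± 0.21 (limma adjusted p = 0.000254).

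The smaller falls were those of Ndufaf1, Ndufaf2 and Ndufaf7. Ndufaf1, a member of the intermediate that builds the membrane arm, went from 60.5 ± 8.70 to 35.1 ± 21.9 CPM (SD, n = 4, limma adjusted p = 0.019), while Ndufaf2, a late factor related to Ndufa12, fell by 0.90 on the log2 scale (limma adjusted p = 0.000564). Ndufaf7 measured 42.2, 47.2, 52.9 and 44.6 CPM in WT saline, 66.1, 59.9, 75.9 and 84.1 in WT isoproterenol, 45.9, 55.5, 46.3 and 54.2 in KO saline and 19.005, 27.8, 34.5 and 59.1 in KO isoproterenol libraries. Ndufaf7, a protein methyltransferase of early assembly, overlapped between the KO groups because replicate 4 was above every KO saline library. Its log2 fold change was -0.64 ± 0.24 (limma adjusted p = 0.0398), and the call was lost without any 1 of the KO saline replicates or of KO isoproterenol replicates 1 to 3 (limma adjusted p up to 0.128), and also under scaling by library totals (limma adjusted p = 0.0643). On the 8 KO libraries alone, neither Ndufaf7 (limma adjusted p = 0.136) nor Ndufaf1 (limma adjusted p = 0.096) was called, and Ndufaf1 was also lost without KO saline replicate 2 (limma adjusted p = 0.0531). Ndufaf4 had a positive value without KO isoproterenol replicate 1, 0.18, and was not called there either (limma adjusted p = 0.594).

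The subunits as a class fell further in KO tissue than the assembly factors. The medians differed by 0.75 on the log2 scale, 38 of 39 subunits lay below the assembly factor median, and 27 lay below every assembly factor. Within each library, the mean log2 CPM of the 39 subunits minus that of the 8 assembly factors, each set to 0 at the WT saline mean, was -1.17, -0.82, -0.55 and -0.45 in the KO isoproterenol libraries. The same measure lay between -0.05 and 0.11 in WT saline, -0.21 and 0.06 in WT isoproterenol, and -0.14 and -0.04 in KO saline libraries, so all 4 KO isoproterenol libraries were below the other 12. Without KO isoproterenol replicate 1 the difference of medians was -0.49. These are descriptions over members chosen with results known, and no test was made of the class difference.

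**Figure D3:**
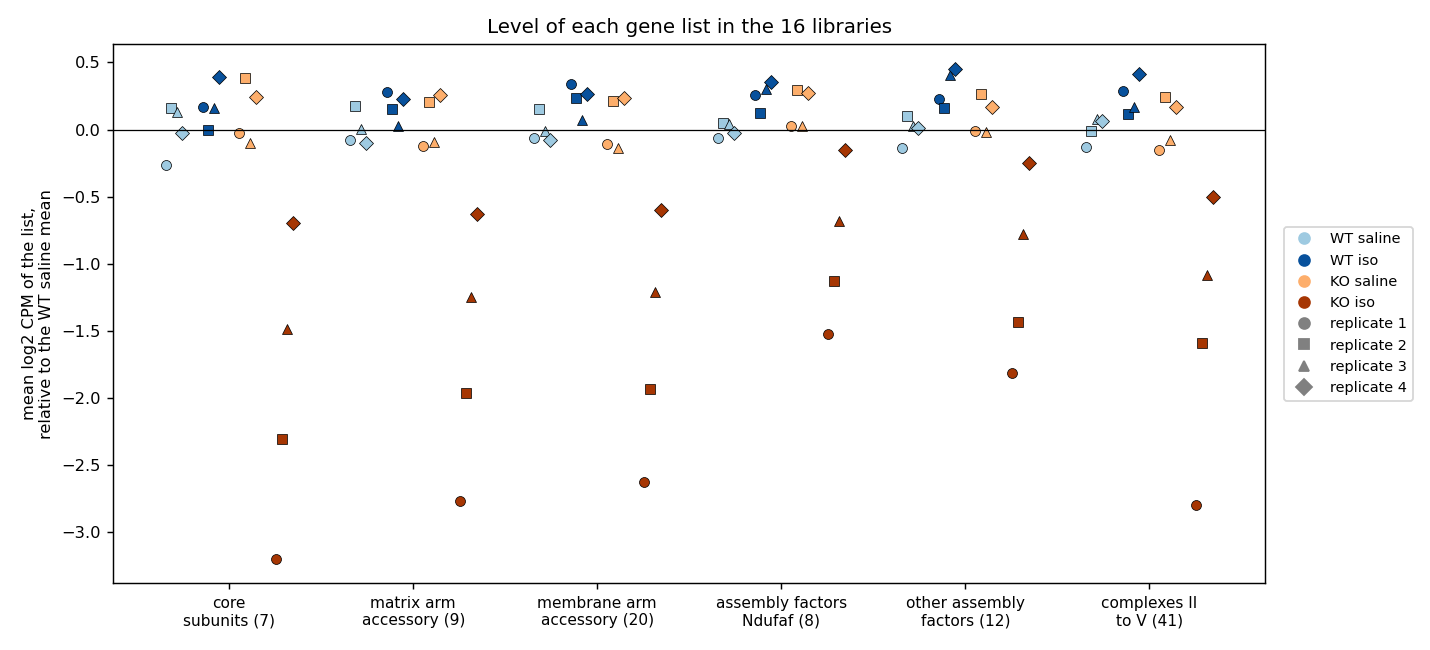
Mean log2 CPM of each gene list relative to its WT saline mean (y axis) for 6 lists (x axis, number of genes in brackets), with 1 point per library coloured by group and shaped by replicate number. KO isoproterenol points lie below all others in every list, from -3.20 to -0.70 for core subunits and from -1.52 to -0.15 for Ndufaf assembly factors.

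The 4 KO isoproterenol libraries differed among themselves in the same way for nearly every member. Against the KO saline mean, the median subunit differed by -2.90, -2.09, -1.33 and -0.70 on the log2 scale in replicates 1 to 4, and the median assembly factor by -1.71, -1.37, -0.79 and -0.45. The numbering is only a name, but the libraries ranked alike for 43 of 47 members, among them 37 of 39 subunits. The order was not particular to complex I. The mean log2 CPM of complexes II to V, set to 0 in WT saline, was -2.79, -1.59, -1.08 and -0.50 in replicates 1 to 4. How many of all genes shared this order was not counted. The summed level of the 37 complex I subunits was 1814, 3267, 5439 and 8906 CPM in these libraries, against 13071 to 16837 CPM in KO saline ones. In replicate 4, the least affected, 36 of the 37 were still below every KO saline library, Ndufab1 being the exception. Of all 15350 genes, 5170 were below every KO saline library in that replicate, as were 33 of the 41 genes of complexes II to V.

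**Figure D4:**
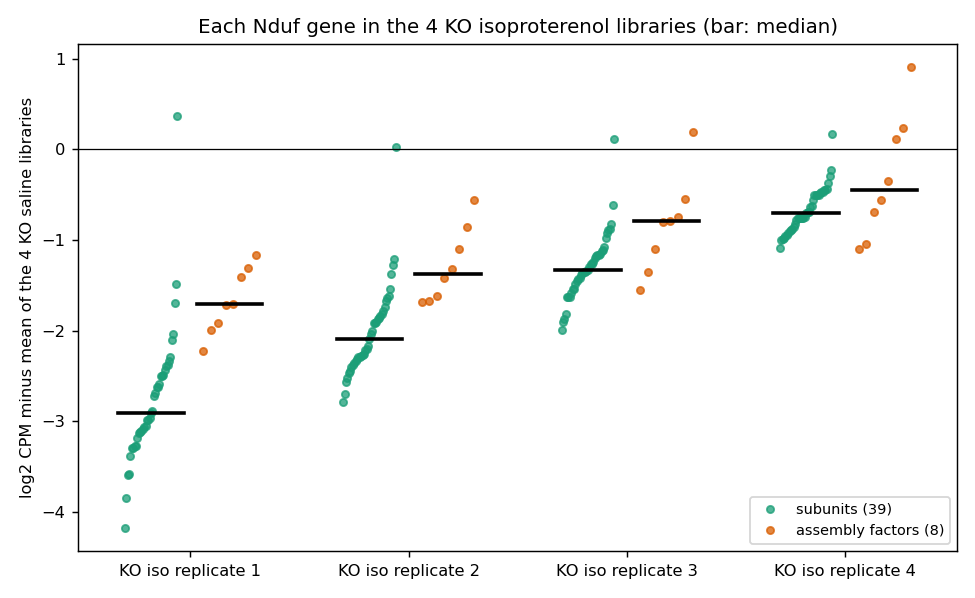
Log2 CPM of each Nduf gene minus its mean in the 4 KO saline libraries (y axis) in the 4 KO isoproterenol libraries (x axis), subunits and assembly factors side by side with their medians as bars. Medians of subunits run from -2.90 to -0.70 and those of assembly factors from -1.71 to -0.45, with the subunit median the lower of the pair in each library.

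Markers of several cell types also changed in KO tissue under isoproterenol. The summed level of 10 adipocyte markers was 6474, 18223, 30443 and 51972 CPM in KO isoproterenol libraries against 31020 to 34374 in KO saline ones. Of the 10, 6 fell and 0 rose, with a median log2 fold change of -1.55, where 24.8% of all genes fell and 23.8% rose. As a mean of log2 CPM set to 0 in WT saline, these 10 were at -2.71, -1.42, -0.55 and -0.15 in KO isoproterenol libraries, each below the KO saline range of -0.14 to 0.14. When KO isoproterenol replicate 1 was left out, 6 fell and the median was -0.86, where 23.3% of all genes fell and 22% rose. The 10 brown adipocyte markers included Ucp1, the knocked-out gene, Cox8b and Cox7a1, also counted with complex IV, and Ppargc1a, also counted as a regulator. These markers summed to 159.9, 1890.1, 3726 and 8689.5 CPM against 6525 to 6894, with 5 falling, 0 rising and a median of -1.14. Without replicate 1 their median was -0.46, and 5 fell and 1 rose (Elovl3, 3.98 ± 0.91, limma adjusted p = 0.00337). The 10 macrophage markers summed to 8057, 2209, 4989 and 1077 CPM against 361 to 654 and all 10 rose, and the 5 of 8 neutrophil markers that were listed summed to 60.8 to 447 CPM against 5.80 to 7.44 and all rose. Without replicate 1, 10 macrophage and 5 neutrophil markers were still called higher. No marker was at 0 reads throughout a group's libraries in these lists. Relative to the adipocyte markers, the mean log2 CPM of the subunits, set to 0 in WT saline, was 0.01, -0.53, -0.68 and -0.45 in KO isoproterenol and -0.10 to 0.15 in KO saline libraries. It was below the KO saline range in replicates 2 to 4 and within it in replicate 1. In WT tissue the adipocyte sum was 29440 to 42739 CPM. Markers of skeletal muscle, a tissue also rich in complex I, summed to 13.4 to 701 CPM in KO isoproterenol and 6.43 to 797 CPM in KO saline libraries, with 0 of 10 called, and reached 8846 CPM in WT saline replicate 4. Of 5 endothelial markers 2 rose, and all 3 lymphocyte markers fell, where 23.8% of all genes rose and 24.8% fell. The part of cell composition in the falls was not tested, and in bulk tissue fewer cells of a type and less RNA per cell cannot be told apart.

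Compared directly under isoproterenol, KO tissue held less of every member than WT tissue. All 47 were lower, where 23.1% of all genes were lower and 21.6% higher (16.5% and 32.8% when scaled by library totals), and all 47 stayed lower without KO isoproterenol replicate 1, where 22.4% of all genes were lower. For 44 members the groups did not overlap, where 18.3% of all genes lay wholly below. The median log2 difference was -1.86 for subunits and -1.15 for assembly factors against 0.02 for all genes, and 36 subunits lay below every assembly factor. Ndufc1 (-2.22 ± 0.35), Ndufs8 (-2.18 ± 0.29), and Ndufv2 (-2.17 ± 0.35) differed most, with limma adjusted p = 0.000218, 5.63e-05 and 0.000256. Ndufa4l2 (-0.59 ± 0.19, limma adjusted p = 0.0214), Ndufaf2 (-0.81 ± 0.17, limma adjusted p = 0.00147) and Ndufaf3 (-0.86 ± 0.17, limma adjusted p = 0.000818) differed least. The Ndufa4l2 call was lost on scaling by library totals (-0.34, limma adjusted p = 0.253), on the 8 libraries alone (limma adjusted p = 0.0632), and without WT isoproterenol replicate 1, WT isoproterenol replicate 2 or KO isoproterenol replicate 4 (limma adjusted p up to 0.0768). This comparison shares its KO isoproterenol libraries with the one above. Ndufaf1 (limma adjusted p = 0.0648) and Ndufaf4 (limma adjusted p = 0.0738) were not called when the 8 libraries were fitted alone.

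The response to isoproterenol itself differed between genotypes for 46 of the 47 members, all more negative in KO tissue, where 13.8% of all genes differed in that direction and 10.9% in the other. Scaled by library totals, 44 differed, where 9.62% of all genes differed in that direction and 18.9% in the other, and Ndufaf1 and Ndufaf4 were lost. The median difference of responses was -1.95 for subunits and -1.30 for assembly factors, against 0.04 for all genes. It was widest for Ndufv2 (-2.32 ± 0.50, limma adjusted p = 0.00574), Ndufv3 (-2.31 ± 0.56, limma adjusted p = 0.0104) and Ndufs3 (-2.31 ± 0.52, limma adjusted p = 0.00736). For Ndufaf4, which rose in WT tissue and was not called in KO tissue, the difference was -1.60 ± 0.53 (limma adjusted p = 0.0398). Ndufaf3 fell in both genotypes and further in KO, with a difference of -0.93 ± 0.23 (limma adjusted p = 0.0119). Ndufa4l2 was not called (-0.46 ± 0.27, limma adjusted p = 0.231). In the 16 fits that each left out 1 library, 40 of the 46 were called throughout. Ndufaf1 lost the call in 12 of them (limma adjusted p up to 0.0785), keeping it without KO isoproterenol replicate 1, 3 or 4 or KO saline replicate 3. Ndufaf4 lost it in 11 (limma adjusted p up to 0.0772), keeping it without KO isoproterenol replicate 1, 3 or 4, KO saline replicate 1 or WT isoproterenol replicate 2. Ndufb3 was lost without KO saline replicate 2 or 4, KO isoproterenol replicate 2, WT saline replicate 1 or 4, or WT isoproterenol replicate 4 (limma adjusted p up to 0.0577). Ndufa4 was lost without WT saline replicate 1 (limma adjusted p = 0.0515) and Ndufab1 without WT isoproterenol replicate 4 (limma adjusted p = 0.0515). Ndufv1 was lost without WT saline replicate 1 (limma adjusted p = 0.0568), WT isoproterenol replicate 4 (limma adjusted p = 0.0566) or KO saline replicate 4 (limma adjusted p = 0.0507). With limma's voom weights 43 differed, and Ndufv1 (limma adjusted p = 0.0648), Ndufb3 (0.0553) and Ndufaf4 (0.0504) were lost. Without KO isoproterenol replicate 1, 46 members were called, where 13.7% of all genes were called lower.

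Members that were more abundant in WT saline tissue, a group outside the KO comparison, tended to have the larger falls in KO tissue. Across the 39 subunits, Spearman's rho between WT saline CPM and the KO log2 fold change was -0.72 and Pearson's r with log2 level was -0.75. Per kilobase of exon the rho was -0.36. Genes are not independent replicates, all points share the same libraries and depth, and no p is given. Ndufb2, lowest among the subunits per kilobase, and Ndufa4l2 had the smaller changes, and Ndufv1, among the highest, the largest with all libraries. The rho over all 47 members was -0.79 for CPM and -0.58 per kilobase.

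**Figure D5:**
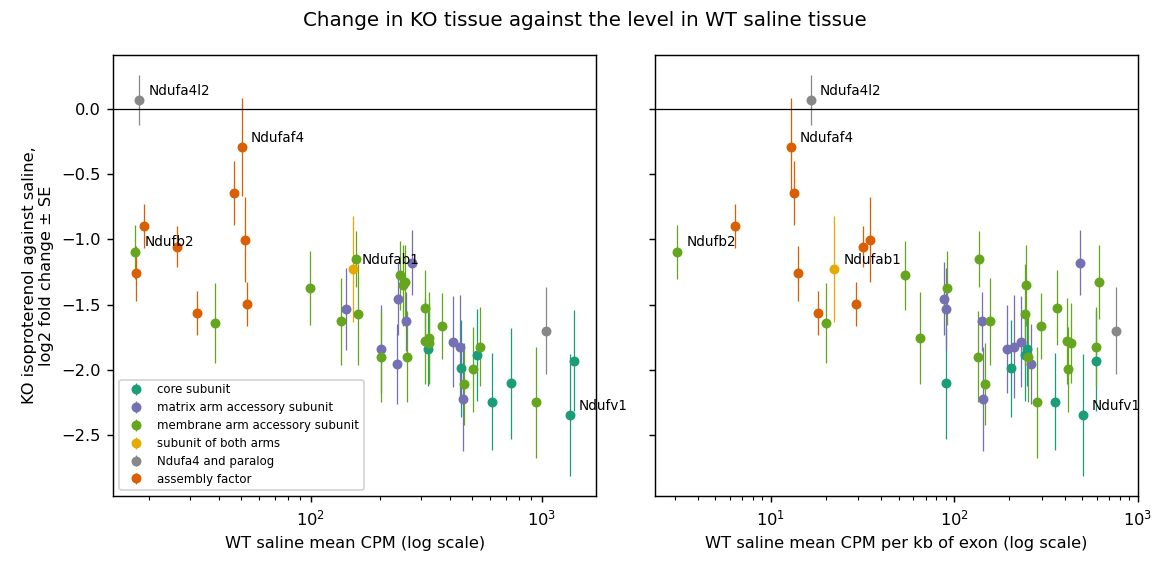
Log2 fold change of each Nduf gene in KO tissue, isoproterenol against saline (y axis, ± SE), against its WT saline level as CPM (left, log axis) and as CPM per kb of exon (right, log axis), coloured by role. Assembly factors sit at lower levels with smaller falls, and among the 39 subunits Spearman's rho is -0.72 on the left and -0.36 on the right.

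The complex I assembly factors with other symbols were counted from a list of 13, of which 12 were measured. In KO tissue 11 of the 12 fell under isoproterenol and 0 rose, where 24.8% of all genes fell, with a median log2 fold change of -1.21. With KO isoproterenol replicate 1 left out, 9 of the 12 fell, where 23.3% of all genes fell, and the median was -0.90. The calls of Chchd4 (-0.39, limma adjusted p = 0.0718) and Tmem70 (-0.57, limma adjusted p = 0.0894) were the ones lost there. Ecsit (-1.72 ± 0.31, limma adjusted p = 0.000365) and Tmem126b (-0.72 ± 0.12, limma adjusted p = 0.000284), which join Ndufaf1 in the membrane-arm intermediate, fell, and so did Timmdc1 of the same intermediate (-0.98 ± 0.21, limma adjusted p = 0.00143). Acad9, another of its members, was at -0.73 ± 0.30 and not called (limma adjusted p = 0.0539). Foxred1 fell by 1.56, Nubpl, which delivers iron-sulfur clusters, by 1.53, and Tmem186 by 1.53 on the log2 scale (limma adjusted p = 0.00119, 0.000582 and 5.28e-05). Dmac2, of distal membrane-arm assembly, Aifm1, of protein import, and Tmem70 were at -1.48 ± 0.27, -1.44 ± 0.39 and -0.97 ± 0.35 (limma adjusted p = 0.000467, 0.00686 and 0.0312). The smallest called falls were those of Dmac1 (-0.63 ± 0.16), Chchd4 (-0.72 ± 0.26) and Tmem126b, and that of Chchd4 was not called when scaled by library totals. In WT tissue Tmem126b alone was called, at 0.38 ± 0.12 (limma adjusted p = 0.0493), and that call was lost in the blocked fit. All 12 were lower in KO than in WT tissue under isoproterenol, Dmac1 not when scaled by library totals.

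Nuclear subunits of the other respiratory complexes gave similar counts in KO tissue. Of 41 such genes, 38 fell and 1 rose (Atp5g1, 1.72 ± 0.38, limma adjusted p = 0.00193), where 24.8% of all genes fell and 23.8% rose, with a median of -1.66 beside -1.78 for the 37 complex I subunits. The medians were -2.07 for complex II (4 of 4 lower), -1.79 for complex III (9 of 9), -1.66 for complex IV (12 of 13) and -1.59 for complex V (13 of 15). Without KO isoproterenol replicate 1, 36 of the 41 fell, 2 rose and the median was -1.22, where 23.3% of all genes fell and 22% rose. The second riser there was Atp5g3 (0.81 ± 0.23, limma adjusted p = 0.0101), and complex V then counted 11 lower and 2 higher of 15. Whether complex I differed from these was not tested.

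Of 9 regulators of nuclear respiratory genes, 4 fell, 2 rose and 3 were not called in KO tissue, where 24.8% of all genes fell and 23.8% rose. In the fit without KO isoproterenol replicate 1, 3 fell and 2 rose, where the shares of all genes were 23.3% and 22%. Esrra, the nuclear receptor ERRalpha that works with PGC-1 coactivators, fell in KO tissue. Esrra measured 220.3, 264, 236 and 236 CPM in WT saline, 313, 268, 336 and 354 in WT isoproterenol, 229, 294, 224 and 274 in KO saline and 49.2, 68.6, 109 and 158 in KO isoproterenol libraries. KO isoproterenol libraries were below all others. The log2 fold change was -1.54 ± 0.26 (limma adjusted p = 0.000267). Ppara, a nuclear receptor of fatty acid oxidation, fell by 3.42 (limma adjusted p = 0.00209) and Ppargc1b, a PGC-1 coactivator, by 2.50 (limma adjusted p = 0.00657). Without replicate 1 these were -2.36 ± 0.42 for Ppara and -1.55 ± 0.34 for Ppargc1b (limma adjusted p = 0.000399 and 0.00189). Tfam, a transcription and packaging factor of mitochondrial DNA, was lower by 0.49 (limma adjusted p = 0.045). That call was lost in most other settings, among them the fit without KO isoproterenol replicate 1 (-0.34, limma adjusted p = 0.141). Nrf1, nuclear respiratory factor 1, moved the other way. Nrf1 measured 21.9, 18.6, 17.5 and 20.3 CPM in WT saline, 23.8, 22.8, 20.5 and 18.1 in WT isoproterenol and 33.2, 30.1, 28.2 and 25.9 in KO isoproterenol libraries, and at most 21.4 in KO saline ones. All 4 KO isoproterenol libraries were above the other 12. Its log2 fold change was 0.58 ± 0.12 (limma adjusted p = 0.0014). Yy1 was higher by 0.26 (limma adjusted p = 0.0379), also lost in several settings. Ppargc1a, which encodes PGC-1alpha, ranged from 3.40 to 341 CPM among KO isoproterenol libraries and was not called (-0.42 ± 0.97, limma adjusted p = 0.749). Without replicate 1 its direction turned, to 0.999 ± 0.42, also not called (limma adjusted p = 0.0676). Gabpa and Pprc1 were not called in this comparison. In WT tissue 0 of the 9 regulators were called by limma, and 2 had an unadjusted p under 0.05, as had 4664 of the 15350 genes. Between KO and WT tissue under isoproterenol, Esrra (-1.86 ± 0.26), Tfam (-0.99 ± 0.19), Ppara (-2.56 ± 0.77), Ppargc1b (-1.97 ± 0.67) and Gabpa (-0.66 ± 0.22) were lower and Pprc1 (1.13 ± 0.24) and Nrf1 (0.47 ± 0.12) higher, with limma adjusted p from 9.81e-05 (Esrra) to 0.0263 (Ppargc1b). Leaving out KO isoproterenol replicate 1, Gabpa was not called (-0.48, limma adjusted p = 0.07), Ppara was at -1.49 and Ppargc1b at -1.02, and Ppargc1a, at 0.24 ± 0.97 with all libraries, was called higher (1.66 ± 0.42, limma adjusted p = 0.00571).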

How the data were processed

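Libraries were made from brown fat RNA with a TruSeq stranded mRNA kit and sequenced as 75-base single reads on an Illumina HiSeq, per the labels' protocols. The submitters' processing notes name STAR, limma and the mouse build mm39, and the sources used here give no tool versions. The authors deposited log2 CPM values per gene and library. These values correspond to whole reads with a prior count of 0.5 over an effective library size, and 100% came out whole within 1e-06 of a read. A gene-level count can split reads between near-identical copies such as pseudogenes, and the treatment of such reads is not stated in the labels. The deposited log2 values were fitted with limma 3.58.1 in R 4.3.3 (empirical Bayes with trend and robust options from statmod 1.5.0), with 4 group means over all 16 libraries and Benjamini-Hochberg adjustment over 15350 genes, called at 0.05.

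Groups came from the titles and the genotype and treatment characteristics, although the protocol text of the saline samples also describes isoproterenol. In 3 KO saline libraries the replicate number in the column header differed from the title, and titles were used. Gene symbols, lengths and types came from GENCODE M21 (15320 of 15350 identifiers matched). Per-kilobase levels divide CPM by the union of annotated exons. The members and all gene lists were chosen with earlier results of these data known. A single member is counted in the lists and not reported here singly. Named genes were the core subunits, all assembly factors, the largest and smallest changes per comparison, Ndufa4 and Ndufa4l2, members often read in the laboratory, other assembly factors, regulators called in a comparison, and Ucp1. Same-numbered WT libraries deviated together (r from 0.21 to 0.54 over genes in all 4 pairs), while KO pairs gave 0.03 to 0.24 with 2 of 4 above 0.1. No label states such a pairing, and correlations between differently numbered libraries were not computed.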

Additional observations from a re-analysis of the deposited data

Results flagged for a closer look

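Among 128 groups of 4 libraries looked at, 3 held a library far from the other 3. Ndufa1 measured 238 CPM in WT isoproterenol replicate 3 and 289 to 296 CPM in the others of that group. Ndufs6 measured 260.0 CPM in WT saline replicate 2 and 227 to 230.0 CPM in the others. Ucp1 measured 2298 CPM in WT saline replicate 1 and 3220 to 3449 CPM in the others. Chance marks about 1 in 20 groups this way.

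The log2 response to isoproterenol differed between KO and WT tissue by limma's interaction test for 30 of the 31 members named with values. Among all genes, 13.8% differed in the negative direction, that of all 30, and 10.9% in the other. Some of the 31 were named because their value in this comparison was extreme. As KO response minus WT response, the core subunits included Ndufv2 (-2.32), Ndufs3 (-2.31), Ndufs8 (-2.29), Ndufs1 (-2.18), Ndufv1 (-2.17) and Ndufs7 (-2.08). The matrix-arm accessory subunits were Ndufv3 (-2.31), Ndufa9 (-2.12), Ndufs6 (-2.08), Ndufs4 (-1.88) and Ndufa7 (-1.37). The membrane-arm accessory subunits were Ndufc1 (-2.26), Ndufa10 (-2.11), Ndufb9 (-2.10), Ndufb8 (-1.90), Ndufb2 (-1.86), Ndufb11 (-1.84), Ndufc2 (-1.78), Ndufa13 (-1.67) and Ndufa1 (-1.43). Ndufab1 was at -1.95 and Ndufa4 at -1.59. The assembly factors were Ndufaf4 (-1.60), Ndufaf6 (-1.59), Ndufaf1 (-1.37), Ndufaf5 (-1.34), Ndufaf7 (-1.25), Ndufaf8 (-1.14), Ndufaf2 (-1.06) and Ndufaf3 (-0.93).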

How the results depend on the processing

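The KO fall and the lower KO level under isoproterenol kept their direction for every called member in all settings tried, namely scaling by library totals or median-ratio factors, a prior count of 2 reads, a filter at a mean log2 CPM of 1, voom weights, no trend, the 8 libraries alone, replicate blocks and each library left out. Over the fits without 1 library, members called ranged from 43 to 45 (KO response), 46 to 47 (KO against WT under isoproterenol), 41 to 46 (difference of responses), 0 to 5 (WT response) and 0 to 0 (KO against WT under saline, where all 26 settings gave 0). The share of all genes called ran, in the same order, from 43.3% to 54.2%, 37.7% to 50.2%, 17.1% to 36.9%, 10.6% to 23.7% and 0.0261% to 0.241%. The median of subunits minus that of assembly factors ranged from -0.86 to -0.49, -0.83 to -0.64, -0.80 to -0.55, -0.06 to 0.07 and -0.10 to -0.01 in the same order. The WT count was 19 on the 8 WT libraries alone, where 32.1% of all genes were called. With the replicate number as a block in all groups, 3, 45, 0, 47 and 46 members were called in the WT response, the KO response, KO against WT under saline, KO against WT under isoproterenol and the difference of responses. In the same order, that fit called 14.8%, 47.7%, 0.0717%, 43.5% and 24.2% of all genes. With the block among WT libraries only, a setting chosen after seeing the data, 2 members were called in WT tissue, Ndufb2 and Ndufa4l2. There 12.1% of all genes were called. With library totals as the scale, the all-gene median shifted by 0.18 in the KO response, -0.11 in the WT response, 0.26 in KO against WT under isoproterenol and 0.29 in the difference of responses. Precision is limited by 4 libraries a group and by the spread among the KO isoproterenol libraries.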
